A study of Mus musculus with 56 samples.

Results

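Uncoupling protein 3 (Ucp3), its neighbour Ucp2 and the fatty acyl thioesterases Acot1, Acot2 and Acot13 were followed in mouse heart under 2 feeding regimens. These 5 genes, of 22864 listed and 13891 tested, were chosen by their symbols after their peak times and amplitudes in these same libraries had been seen, so their phases and amplitudes by regimen are given here as a description and carry no test. Hearts came from wild-type C57BL/6J females, 9 weeks old, housed with lights on for 12 h and off for 12 h. Food was given for 7 days either while the lights were on (DRF, daytime-restricted feeding) or while they were off (NRF, nighttime-restricted feeding, the reference for a nocturnal animal). PolyA RNA was sequenced at 7 times of day, ZT0 to ZT24, where zeitgeber time (ZT) counts the hours since the lights came on, with 4 hearts in each of 14 groups and 56 libraries in all. The question was how far each gene follows the meal rather than the light.

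Ucp3 is a carrier of the inner mitochondrial membrane found mainly in skeletal muscle, brown fat and heart, and its transcript is known to be raised by fasting and by fatty acids through the nuclear receptors of the PPAR family. Acyl-CoA thioesterases split fatty acyl-CoA into free fatty acid and coenzyme A: Acot1 does so in the cytosol, Acot2 in the mitochondrial matrix, and Acot13 is a smaller, unrelated enzyme of mitochondria and cytosol. Export of fatty acids freed in the matrix has been proposed as a role of Ucp3, which is why the carrier and the thioesterases are often considered side by side.

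Values are linear TPM (reads per base of exon, set to an equal total in each library) that were recomputed from whole reads. The libraries held 29.4 to 53.1 M recovered reads, with a median of 37.4 M. At this depth Ucp3 had 477 to 6686 reads per library, Ucp2 2503 to 8455, Acot1 311 to 2651, Acot2 1358 to 4665 and Acot13 5424 to 11346. Cardiomyocyte markers were abundant in every library, with a summed level of 14215 to 25324 TPM. Atrial markers ran from 94.9 to 5476 TPM under DRF (median 1801) and from 129 to 4301 TPM under NRF (median 608), and haemoglobin and other blood markers from 1682 to 67274 TPM. In whole hearts, fewer cells of a type and less RNA per cell cannot be told apart.

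A pair of libraries went against their labels. Over 1089 other genes whose rhythm differed between the regimens, the library labelled DRF ZT4 replicate 1 lay nearest to the NRF ZT8 group and the library labelled NRF ZT8 replicate 1 nearest to the DRF ZT4 group. The root mean square log2 distance of each from its nearest group was 0.162 and 0.171, against 0.392 and 0.374 from its own. The other 54 libraries lay nearest to a group of their own regimen within 4 h. Labels were kept as given, and values without this pair are given beside the results it could change.

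Ucp3 and Ucp2 are neighbours on the forward strand of chromosome 7 (build GRCm38, GENCODE M21). Ucp3 (ENSMUSG00000032942) spans 100472990 to 100486432 and Ucp2 (ENSMUSG00000033685) 100493337 to 100502020, with 6904 bases between them. Gm10603, an antisense gene, shares 1857 bases with Ucp3, and Dnajb13 shares 305 bases of the reverse strand with the end of Ucp2. These partners were at means of 0.464 and 0.326 TPM. The use of strand in counting is not given in the sources used here, so reads of partners cannot be told apart. Acot2 (ENSMUSG00000021226, 83987861 to 83993873) and Acot1 (ENSMUSG00000072949, 84009490 to 84018371) lie in tandem on chromosome 12, with 15616 bases between them. They are close copies, and how reads shared by them were counted is not given in the sources used here, so the split of reads between them is uncertain. Acot13 (ENSMUSG00000006717) lies on the reverse strand of chromosome 13, from 24817948 to 24831540.

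The bases just before the start of transcription are shown for these neighbours because the daily profiles of Acot1 and Acot2 were alike and those of Ucp3 and Ucp2 were not. They are from RefSeq (GRCm38.p6), run 5′ to 3′ on the forward strand, are 229 to 250 bases long, stop before the GENCODE start, and lie at chr7:100472741-100472989 (Ucp3), chr7:100493108-100493336 (Ucp2), chr12:83987611-83987860 (Acot2) and chr12:84009252-84009489 (Acot1). Capitals mark AGGTCA, the core motif that nuclear receptors such as the PPARs bind. Sequences of 4 of the 5 members were matched, all but Acot13.
Ucp3: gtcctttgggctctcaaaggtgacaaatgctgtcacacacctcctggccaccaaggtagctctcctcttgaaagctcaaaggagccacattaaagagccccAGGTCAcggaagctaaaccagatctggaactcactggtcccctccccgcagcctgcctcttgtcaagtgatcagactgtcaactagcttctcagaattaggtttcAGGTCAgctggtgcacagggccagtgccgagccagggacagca
Ucp2: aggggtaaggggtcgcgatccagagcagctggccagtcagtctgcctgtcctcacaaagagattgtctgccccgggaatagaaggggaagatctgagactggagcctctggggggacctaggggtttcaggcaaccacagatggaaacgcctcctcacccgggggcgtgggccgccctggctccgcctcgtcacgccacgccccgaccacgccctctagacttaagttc
Acot2: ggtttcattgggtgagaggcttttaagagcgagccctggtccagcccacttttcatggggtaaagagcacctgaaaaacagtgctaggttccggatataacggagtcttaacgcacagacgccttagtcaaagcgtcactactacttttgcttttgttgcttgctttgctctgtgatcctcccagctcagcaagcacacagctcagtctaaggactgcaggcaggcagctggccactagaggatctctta
Acot1: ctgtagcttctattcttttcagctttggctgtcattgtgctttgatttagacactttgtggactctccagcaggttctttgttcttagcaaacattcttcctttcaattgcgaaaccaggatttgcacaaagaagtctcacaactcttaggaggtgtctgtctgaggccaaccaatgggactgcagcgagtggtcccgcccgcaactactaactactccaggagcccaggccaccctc

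AGGTCA, searched on both strands, matched 2 times before Ucp3, starting 149 and 44 bases ahead of the RefSeq start, and 0 times before Ucp2, Acot1 and Acot2. Over the 250 bases before the start of 32851 RefSeq promoters, 14.02% held at least 1 match and 1.36% at least 2. CACGTG, the E-box that clock proteins bind, matched 0 times in the 4 sequences and in 6.02% of all promoters. These are matches of letters in short windows and say nothing of binding.

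From its lowest to its highest group mean Ucp3 spanned 4.90-fold under DRF (ZT16 to ZT20) and 5.01-fold under NRF (ZT16 to ZT4), and 7.13-fold (ZT4 to ZT20) and 5.79-fold (ZT16 to ZT8) without the doubted pair. Its high phase lay in the light under NRF and from the late dark into lights on under DRF. Under DRF it was at 90.7, 44.5, 52.9 and 72.9 TPM in the 4 hearts at ZT0, then at 99.7, 18.3, 14.4 and 8.62 TPM at ZT4. It was at 19.7, 27.4, 16.98 and 18.4 TPM at ZT8, at 21.4, 28.04, 28.8 and 17.2 TPM at ZT12, and at 24.6, 20.9, 15.9 and 18.8 TPM at ZT16. It was then at 122.9, 87.3, 96.5 and 86.2 TPM at ZT20 and at 79.5, 86.3, 38.9 and 79.6 TPM at ZT24. Thus the hearts from ZT8 to ZT16 were all low, those from ZT20 to ZT0 all high, and ZT4 was low except for the doubted library at 99.7 TPM. The step from ZT16 to ZT20 was 4.90-fold between group means.

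Under NRF Ucp3 was at 34.0, 28.7, 35.4 and 34.9 TPM at ZT0, at 32.3, 24.4, 104.6 and 127.2 TPM at ZT4, and at 25.8, 102.7, 59.6 and 88.0 TPM at ZT8. It was at 45.8, 47.7, 56.5 and 25.6 TPM at ZT12 and at 18.998, 15.3, 10.7 and 12.6 TPM at ZT16. The last groups were at 15.7, 15.5, 21.2 and 19.8 TPM at ZT20 and at 26.1, 46.1, 29.7 and 30.7 TPM at ZT24. The ZT4 group was split, with replicates 1 and 2 at the level of ZT0 and replicates 3 and 4 above every other NRF library, and the low heart at ZT8 was the doubted library.

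At the same ZT, Ucp3 did not overlap between the regimens at ZT0 (65.3 against 33.3 TPM) and ZT20 (98.2 against 18.04 TPM, 5.45-fold), DRF being higher at each. Without the doubted pair it also did not overlap at ZT4 (8.62 to 18.3 against 24.4 to 127.2 TPM) and ZT8 (16.98 to 27.4 against 59.6 to 102.7 TPM), NRF being higher at each. At ZT8 the means were 20.6 ± 4.64 TPM in DRF hearts and 69.0 ± 33.9 TPM in NRF hearts (SD, n = 4), and with the doubted library left out the NRF hearts were at 83.4 ± 21.9 TPM (SD, n = 3). At ZT4 the DRF mean of 35.2 ± 43.1 TPM (SD, n = 4) became 13.8 ± 4.87 TPM (SD, n = 3) without the doubted library. Of the 13 steps between neighbours when all 14 group means were put in order, 3 were larger than the pooled SD of the groups, and the ranges of neighbours overlapped in all 13.

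**Figure D1:**
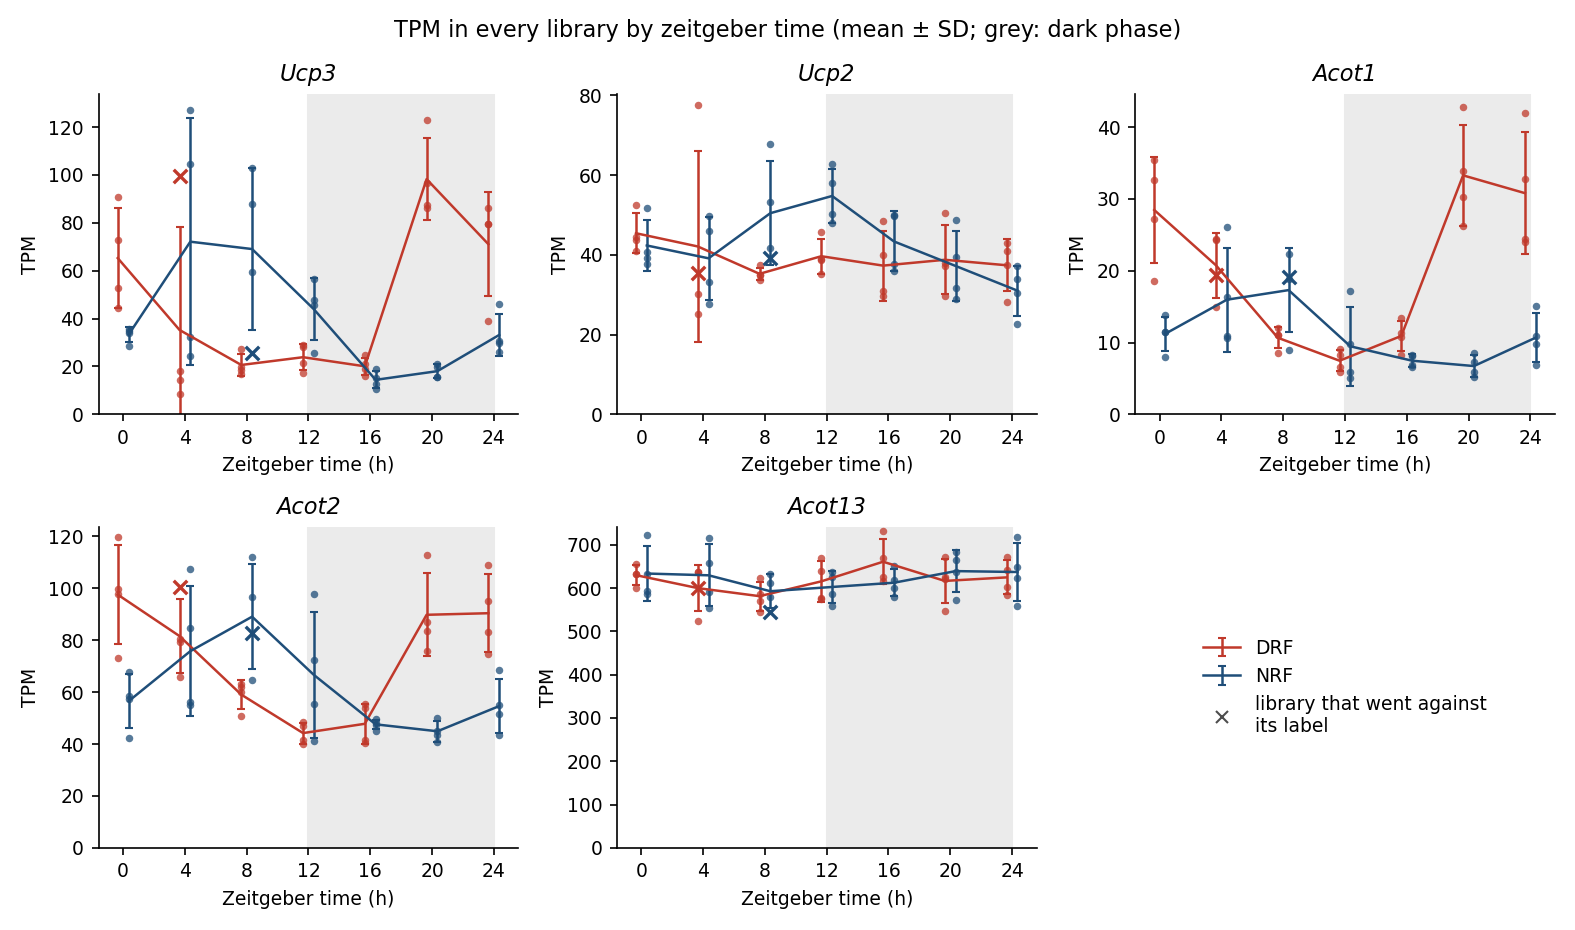
TPM of each gene (y axis, from 0) against zeitgeber time in hours (x axis) under DRF (red) and NRF (blue). Points are single hearts, lines join group means with their SD (n = 4; a bar that would pass below 0 ends at the axis), crosses mark the pair of libraries that went against their labels, and grey marks the dark phase. Ucp3 under DRF sits near 20 TPM from ZT8 to ZT16 and at 86.2 to 122.9 TPM at ZT20, while Acot13 stays between 525 and 731 TPM.

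The fitted 24 h curve placed the Ucp3 peak at ZT6.23 (SE 0.544 h) under NRF and ZT21.8 (SE 0.760 h) under DRF, a circular difference of -8.47 h (SE 0.935 h, 95% interval -10.3 to -6.64). Amplitudes on the log2(TPM + 1) scale were 1.06 (SE 0.171) under NRF and 1.07 (SE 0.203) under DRF. Without the pair of doubted libraries the peaks were at ZT6.41 and ZT21.3, the difference was -9.10 h (SE 0.816 h) and the amplitudes were 1.17 and 1.12. The curve took up 60.6% of the variance under NRF and 53.0% under DRF. Single ZTs mattered too: leaving out ZT4 gave a difference of -7.43 h, leaving out ZT12 one of -7.52 h and leaving out ZT16 one of -10.6 h.

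A 12 h term added to the curve of Ucp3 under DRF had an amplitude of 0.64 on the log2(TPM + 1) scale, 0.89 without the doubted pair and 0.95 without ZT4. It belongs to the profile that chose the gene and is given with no test.

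Ucp2, a carrier of the same family expressed in many tissues and in immune cells, kept close to 40 TPM under DRF. Its DRF group means lay between 35.2 TPM (ZT8) and 45.4 TPM (ZT0). Under NRF the lowest group mean was 31.0 TPM (ZT24) and the highest 54.8 TPM (ZT12). The 4 hearts at ZT12 were at 50.2, 62.8, 48.0 and 58.0 TPM under NRF and at 35.1, 45.7, 39.0 and 38.7 TPM under DRF. The regimens did not overlap at ZT8 or ZT12, DRF being lower at each, and overlapped at the other 5 ZTs.

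The fitted peak of Ucp2 under NRF was ZT11.01 (SE 1.14 h) with an amplitude of 0.29 (SE 0.08). Under DRF the amplitude was 0.06 (SE 0.08), and the peak, with a SE of 6.05 h, has no usable value. The highest Ucp2 value of all libraries, 77.5 TPM, was in DRF ZT4 replicate 2, which also held the highest blood marker sum of all (67274 TPM) and an atrial sum of 4948 TPM. Across the 56 libraries the log level of Ucp2 had a Pearson r of 0.63 with the summed fibroblast markers, 0.46 with blood and 0.41 with macrophage and leukocyte markers, whereas for Ucp3 r lay between -0.14 and 0.18 for the 8 cell types. The libraries share depth scaling and composition, and the part of these cells in the Ucp2 values was not tested.

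Acot1, the cytosolic thioesterase, had the largest difference between the regimens of the 5 members in the level averaged over the day on the log2 scale (in TPM the difference of Acot2 was larger), whereas at a single ZT the largest ratio was that of Ucp3 at ZT20. At ZT0 it was at 32.6, 27.3, 18.6 and 35.4 TPM (DRF) and at 11.5, 8.02, 11.4 and 13.9 TPM (NRF). At ZT20 it was at 26.2, 42.8, 33.9 and 30.3 TPM (DRF) and at 5.21, 5.85, 8.53 and 7.32 TPM (NRF), a ratio of means of 4.95. At ZT24 it was at 41.9, 24.04, 24.4 and 32.8 TPM (DRF) and at 6.87, 15.1, 9.82 and 10.96 TPM (NRF). The regimens did not overlap at any of these 3 ZTs.

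In the rest of the day Acot1 overlapped between regimens. At ZT4 the hearts were at 19.4, 24.4, 14.9 and 24.3 TPM (DRF) and at 10.9, 10.6, 26.1 and 16.3 TPM (NRF), with the same 2 NRF hearts high as for Ucp3. At ZT8 they were at 12.0, 11.1, 11.1 and 8.52 TPM (DRF) and at 19.1, 18.9, 8.91 and 22.3 TPM (NRF). At ZT12 and ZT16 the group means were 7.47 ± 1.495 and 10.9 ± 2.12 TPM with DRF, against 9.47 ± 5.52 and 7.47 ± 0.868 TPM with NRF (SD, n = 4), so the NRF hearts of ZT12 were the most spread for their level.

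Acot2, the mitochondrial thioesterase, was high and low at similar times to Acot1, with a smaller swing. At ZT0 it was at 97.9, 99.7, 73.1 and 119.6 TPM (DRF) and at 57.3, 42.5, 67.6 and 58.5 TPM (NRF). At ZT8 it was at 63.3, 61.9, 59.99 and 51.0 TPM (DRF) and at 82.6, 96.8, 64.8 and 112.0 TPM (NRF). At ZT20 it was at 83.6, 112.8, 75.9 and 86.9 TPM (DRF) and at 40.7, 43.6, 50.2 and 45.2 TPM (NRF). The groups did not overlap at these 3 ZTs or at ZT24, with DRF lower at ZT8 and higher at the others. From its highest to its lowest group mean Acot2 spanned 2.21-fold under DRF and 1.98-fold under NRF, against 4.46-fold and 2.57-fold for Acot1.

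Acot13 was the most abundant member and the flattest. Its level ran from 525 to 731 TPM under DRF with a median of 625, and from 545 to 723 TPM under NRF with a median of 621. Group means lay between 581 and 661 TPM, and the regimens overlapped at all 7 ZTs. Its amplitudes were 0.06 (SE 0.03) under DRF and 0.05 (SE 0.03) under NRF on the log2(TPM + 1) scale. Its log level had a Pearson r of -0.58 with the summed blood markers over the 56 libraries, and the part of blood in its values was not tested.

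The fitted peak of Acot1 was at ZT5.67 (SE 0.705 h) under NRF and ZT23.2 (SE 0.377 h) under DRF, a difference of -6.44 h (SE 0.799 h). That of Acot2 was at ZT7.06 (SE 0.649 h) and ZT0.338 (SE 0.461 h), a difference of -6.72 h (SE 0.796 h). The amplitude of Acot1 was 0.61 (SE 0.13) under NRF and 0.99 (SE 0.09) under DRF, and that of Acot2 0.47 (SE 0.09) and 0.56 (SE 0.06). Acot13 peaked at ZT22.3 (SE 2.40 h) under NRF and ZT18.4 (SE 1.52 h) under DRF. Without the doubted pair the differences of Acot1 and Acot2 were -6.30 h (SE 0.857 h) and -6.88 h (SE 0.819 h). Counted from the start of feeding, Ucp3 peaked 3.53 h later under DRF than under NRF, Acot1 5.56 h later and Acot2 5.28 h later. These lags are the differences above set against 12 h, carry the same SEs and move with them. That of Ucp3 is shorter without the doubted pair, when its difference was -9.10 h.

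**Figure D2:**
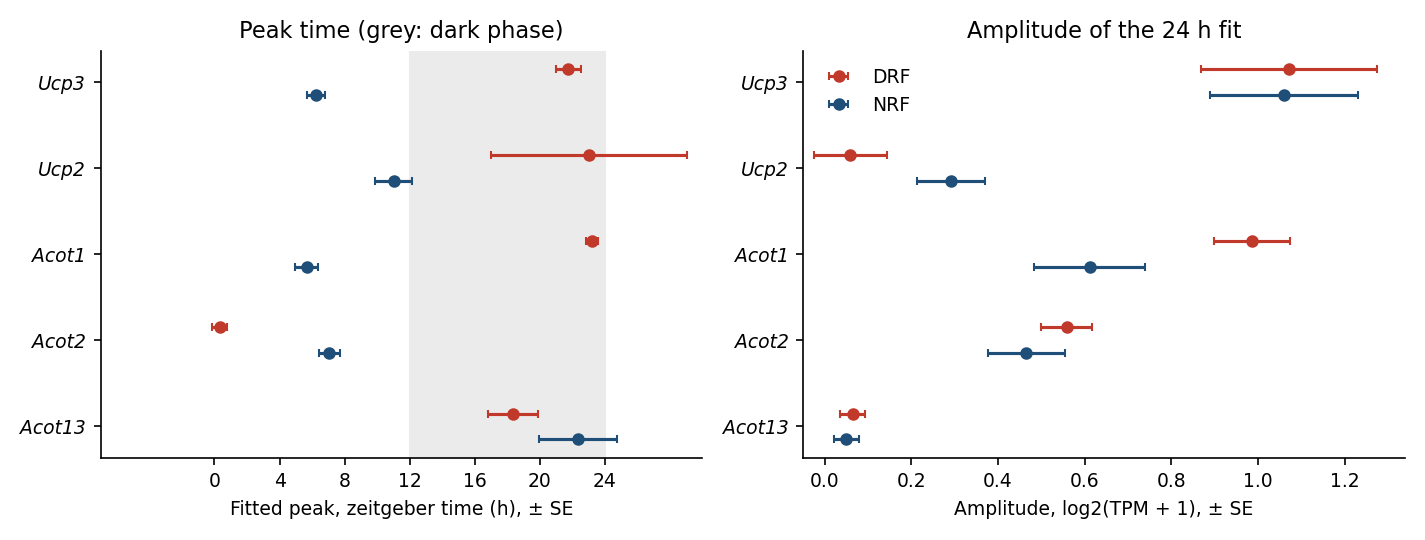
Left, fitted peak time in hours of zeitgeber time (x axis) for each gene (y axis) under DRF (red) and NRF (blue), with grey for the dark phase. Right, amplitude of the same 24 h curve on the log2(TPM + 1) scale. Bars are standard errors. Ucp3, Acot1 and Acot2 peak between ZT5.67 and ZT7.06 under NRF and between ZT21.8 and ZT0.338 under DRF, while the DRF peak of Ucp2 and the peaks of Acot13 are poorly fixed.

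Over the 14 group means, the log levels of Acot1 and Acot2 had a Pearson r of 0.92, those of Ucp3 and Acot2 0.82, those of Ucp3 and Acot1 0.78 and those of Ucp3 and Ucp2 0.25, where all points share the same libraries.

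The level averaged over the day was not named in the rule that chose the members and was tested, but it comes from the same libraries as the phases and amplitudes that were seen, so the test is not independent of the choice. The average counts ZT0 and ZT24, the same hour of the day, as separate times. Acot1 averaged 20.3 ± 11.2 TPM with DRF against 11.3 ± 5.44 TPM with NRF over the day (SD, n = 28 each, the SD holding the daily swing). It rose by 0.71 (SE 0.10) on the log2(TPM + 1) scale (95% interval 0.51 to 0.92, limma adjusted p = 4.39e-06), with a higher group mean at 5 of 7 ZTs. Acot2, at 72.9 ± 23.7 and 62.2 ± 20.8 TPM (SD, n = 28 each), rose by 0.22 (SE 0.07, 95% interval 0.07 to 0.37, adjusted p = 0.0211), also at 5 of 7 ZTs. For Acot2 these included ZT4 (81.6 against 75.8 TPM) and ZT16 (47.8 against 47.6 TPM), where the groups overlapped.

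Over the 56 libraries the log level of Acot1 had a Pearson r of -0.37 with the summed skeletal muscle markers, -0.36 with the cardiomyocyte markers and -0.29 with the fibroblast markers. The skeletal muscle sum came almost wholly from Ckm (mean 875 TPM) and Acta1 (301 TPM). Tnnt3 was at 0.618 TPM and Myh1 and Myh4 were not listed, so this sum is no measure of skeletal muscle alone. The median cardiomyocyte sum was 18213 TPM under DRF and 19472 TPM under NRF. The part of these markers in the Acot1 values was not tested.

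The call of Acot1 held with the doubted pair left out (0.73, adjusted p = 5.19e-06) and without each single library, replicate number or ZT. That of Acot2 held without the pair (0.20, adjusted p = 0.0372) but was lost without ZT0 (0.13, adjusted p = 0.260), ZT20 (0.09, adjusted p = 0.444) or ZT24 (0.14, adjusted p = 0.210), so that it did not pass with the shared hour of ZT0 and ZT24 counted once, and without replicate 1, 2 or 4. In the same test Ucp3 differed by 0.16 (95% interval -0.17 to 0.48, adjusted p = 0.503), Ucp2 by -0.10 (-0.27 to 0.06, adjusted p = 0.362) and Acot13 by -0.01 (-0.07 to 0.06, adjusted p = 0.916), none of which passed. For Ucp3 the difference was 0.00 without the pair (-0.25 to 0.25, adjusted p = 0.988) and 0.40 without ZT4 (adjusted p = 0.00641).

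Thus 2 of 5 members passed for a different mean level, beside 28.9% of all genes tested, and both were higher under DRF, as were 2.87% of all genes against 26.1% that were lower. That imbalance depended on the scaling. With TPM, 4020 genes were called, 399 higher and 3621 lower, and 1341 were called higher and 1518 lower after median-of-ratios rescaling, with the median of all genes at -0.05 and 0.00. Acot1 and Acot2 stood at 0.77 (adjusted p = 1.33e-06) and 0.28 (adjusted p = 0.00466) after rescaling, while the sign of Acot13 turned (0.05, adjusted p = 0.272).

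The Acot1 to Acot2 ratio was compared between regimens, with the limit that the split of shared reads between these close copies is uncertain. The ratio comes from the same profiles that were seen when the members were chosen and from the same levels as the difference over the day, so its test is not independent of that choice or of that difference. As a mean log2 ratio of TPM it was -1.999 ± 0.451 with DRF and -2.54 ± 0.305 with NRF (SD, n = 28 each), a difference of 0.54. In a permutation test of the regimen labels within ZT, two-sided, p was 1e-05, the smallest that 100000 resamples can give, and 2e-05 after adjustment over the 2 ratios. By group, Acot1 stood at 0.369 of Acot2 at ZT20 and 0.167 at ZT12 under DRF, and between 0.133 (ZT12) and 0.204 (ZT4) under NRF. The difference was 0.57 without the doubted pair and between 0.50 and 0.58 without each replicate number, each with an adjusted p of at most 4e-05. The Ucp3 to Ucp2 ratio was -0.08 ± 1.09 with DRF and -0.34 ± 0.858 with NRF (SD, n = 28 each), a difference of 0.26 that did not pass (adjusted permutation p = 0.266), and 0.19 without the doubted pair (adjusted permutation p = 0.407). Levels between genes depend on the lengths used: at the longest coding transcript of each gene, mean levels would be 56.6 TPM for Ucp3, 71.9 for Ucp2, 27.3 for Acot1 and 67.5 for Acot2, against 44.2, 41.0, 15.8 and 67.5 TPM here.

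**Figure D3:**
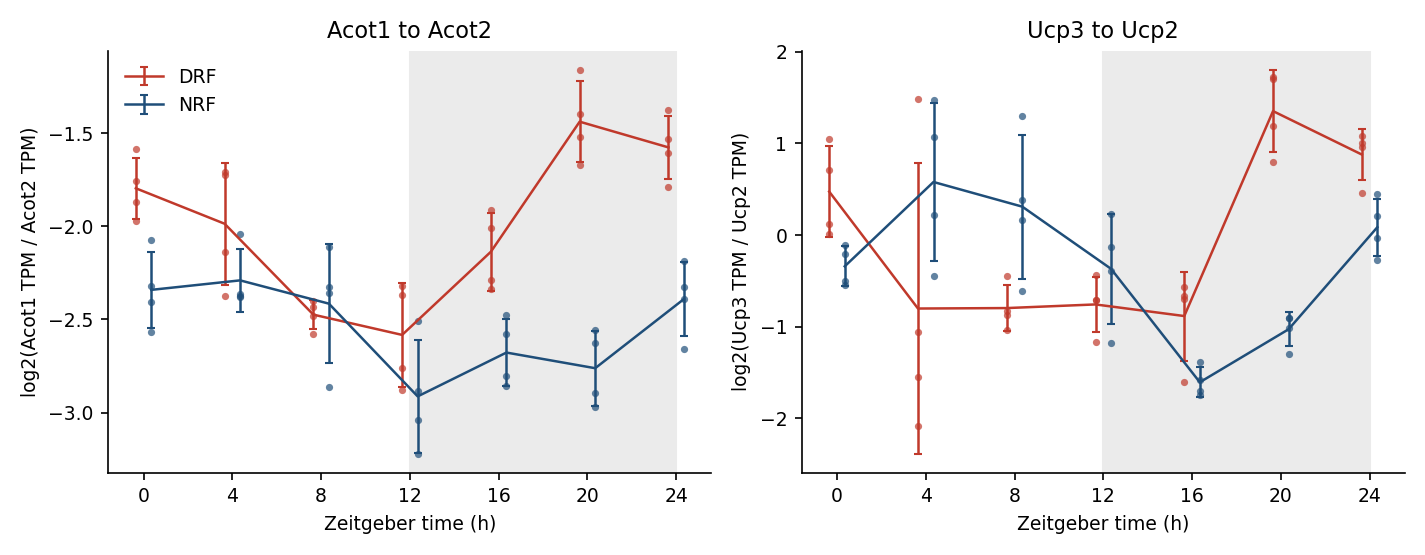
Log2 ratio of TPM of Acot1 to Acot2 (left) and of Ucp3 to Ucp2 (right) against zeitgeber time in hours under DRF (red) and NRF (blue), with grey for the dark phase. Points are single hearts and lines join group means with their SD (n = 4). The Acot1 to Acot2 ratio has a higher group mean under DRF at 6 of the 7 ZTs and lies slightly lower at ZT8 (-2.47 against -2.42), and its difference over the day is 0.54.

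To compare hearts at the same hour from the start of feeding, DRF groups were set against the NRF group 12 h away. If a profile followed the meal alone, these differences would be near 0. They follow from the phases and amplitudes that chose the members, so they are given as limma estimates on the log2(TPM + 1) scale, DRF minus NRF, with 95% intervals and no test.

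In the hearts taken as feeding began (DRF ZT0, NRF ZT12), Acot1 stood at 28.5 ± 7.37 TPM with DRF against 9.47 ± 5.52 TPM with NRF (SD, n = 4), a difference of 1.59 (1.05 to 2.13), and the groups did not overlap. Acot2 was at 97.6 ± 19.1 and 66.6 ± 24.4 TPM (SD, n = 4), with overlapping groups and a difference of 0.59 (0.20 to 0.98). Leaving out single libraries or replicate numbers gave 0.28 to 0.80, the highest without NRF ZT12 replicate 1. Ucp3 differed by 0.56 (-0.31 to 1.43) and its groups overlapped.

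At 4 h into feeding (DRF ZT4, NRF ZT16) Acot1 was at 20.8 ± 4.53 and 7.47 ± 0.868 TPM (SD, n = 4), a difference of 1.34 (0.80 to 1.88), and 1.36 without the doubted pair. Acot2 was at 81.6 ± 14.4 and 47.6 ± 1.86 TPM (SD, n = 4), a difference of 0.75 (0.36 to 1.14), and 0.64 without the pair. Neither gene overlapped between the groups. Ucp3 differed by 0.62 (-0.25 to 1.49) with all libraries and by -0.09 without the pair, when the means were 13.8 TPM (DRF) and 14.4 TPM (NRF).

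At 8 h into feeding (DRF ZT8, NRF ZT20) Acot1 differed by 0.61 (0.06 to 1.15) and Acot2 by 0.39 (-0.00322 to 0.77), with the DRF hearts of Acot2 all above the NRF hearts. At the end of feeding (DRF ZT12, NRF ZT24) the estimates of Ucp3 (-0.45, -1.32 to 0.41), Acot1 (-0.43, -0.98 to 0.11) and Acot2 (-0.28, -0.67 to 0.10) were below 0, with intervals that held 0 and groups that overlapped.

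At 4 h into fasting (DRF ZT16, NRF ZT4) the estimates of these 3 genes were again below 0. Ucp3 stood at 20.1 ± 3.67 TPM with DRF against 72.1 ± 51.5 TPM with NRF (SD, n = 4), a difference of -1.48 (-2.35 to -0.61). That NRF group was the split group, and the groups overlapped. Without NRF ZT4 replicate 3 the difference was -1.19 and without replicate 4 of that group -1.10. Acot2 differed by -0.61 (-1.0003 to -0.22), which was -0.49 after median-of-ratios rescaling and -0.43 without NRF ZT4 replicate 3, and Acot1 by -0.44 (-0.98 to 0.10). With single libraries or replicate numbers left out, the Acot1 difference ran from -0.69 to -0.06.

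At 8 h into fasting (DRF ZT20, NRF ZT8) Acot1 was at 33.3 ± 7.06 and 17.3 ± 5.82 TPM (SD, n = 4) with no overlap, a difference of 0.95 (0.41 to 1.49), which was 1.02 without the doubted pair and 0.68 without NRF ZT8 replicate 3. Acot2 was at 89.8 ± 16.003 and 89.1 ± 20.1 TPM (SD, n = 4), a difference of 0.02 (-0.36 to 0.41). Ucp3 was at 98.2 ± 17.1 and 69.0 ± 33.9 TPM (SD, n = 4), a difference of 0.66 (-0.21 to 1.53) that was 0.25 without the pair. Over the 6 contrasts the differences of Ucp2 lay between -0.36 and 0.36 and those of Acot13 between -0.14 and 0.07.

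**Figure D4:**
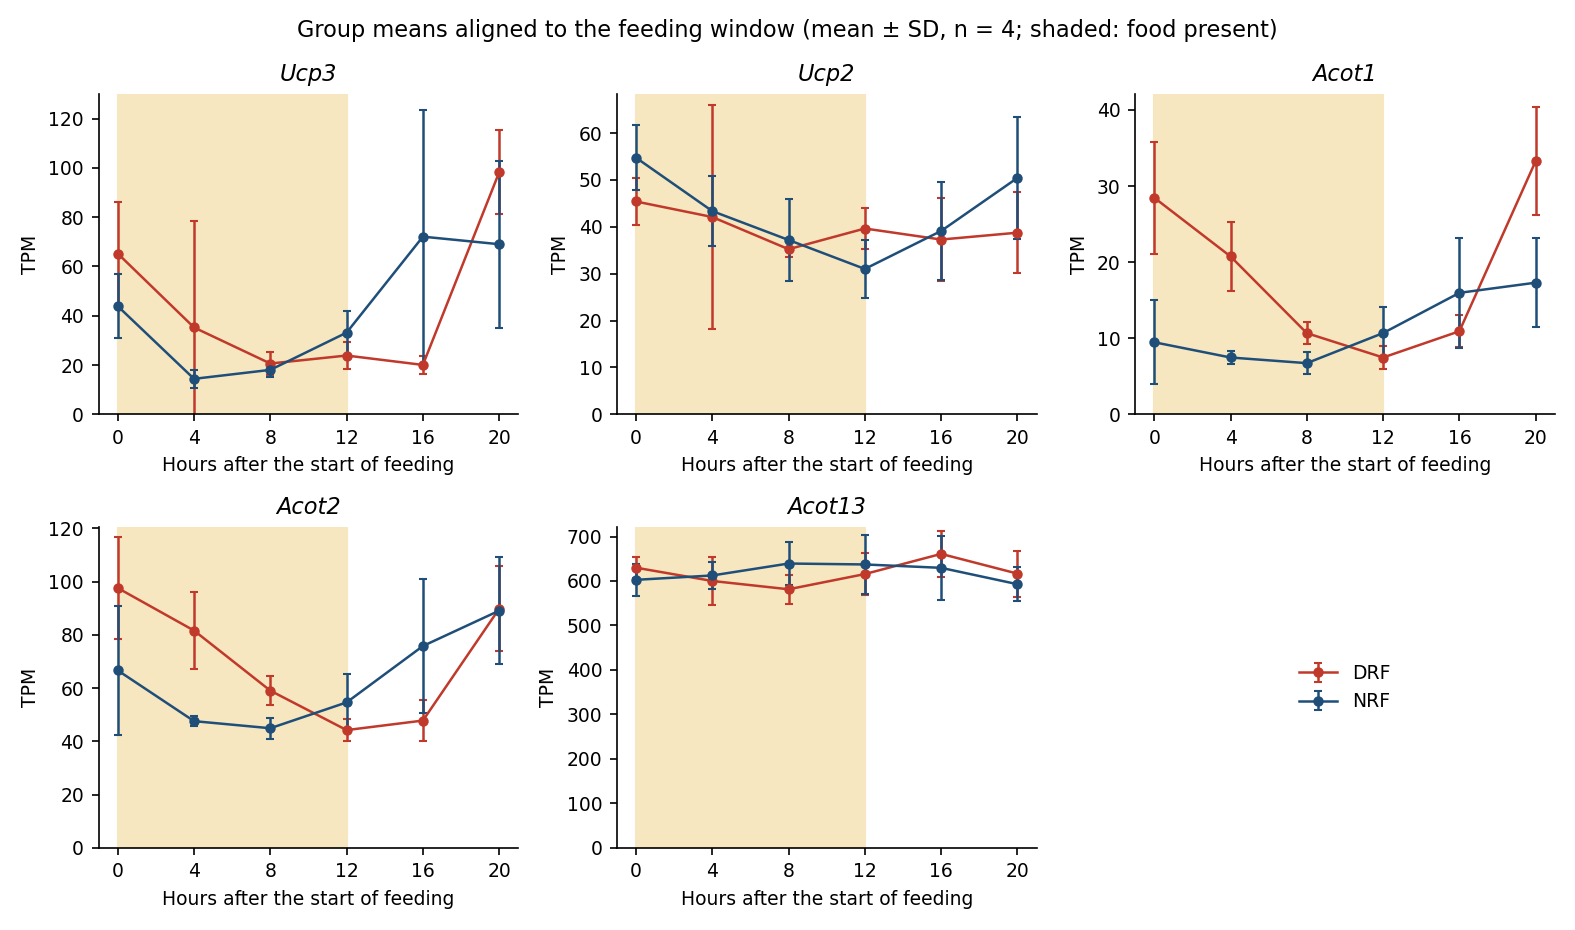
TPM of each gene (y axis, from 0) against hours after the start of feeding (x axis) under DRF (red) and NRF (blue), as group means with SD (n = 4; a bar that would pass below 0 ends at the axis), with the feeding window shaded. At 16 h Ucp3 is at 20.1 TPM with DRF against 72.1 TPM with NRF, and at 0 and 4 h Acot1 lies higher under DRF.

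**Figure D5:**
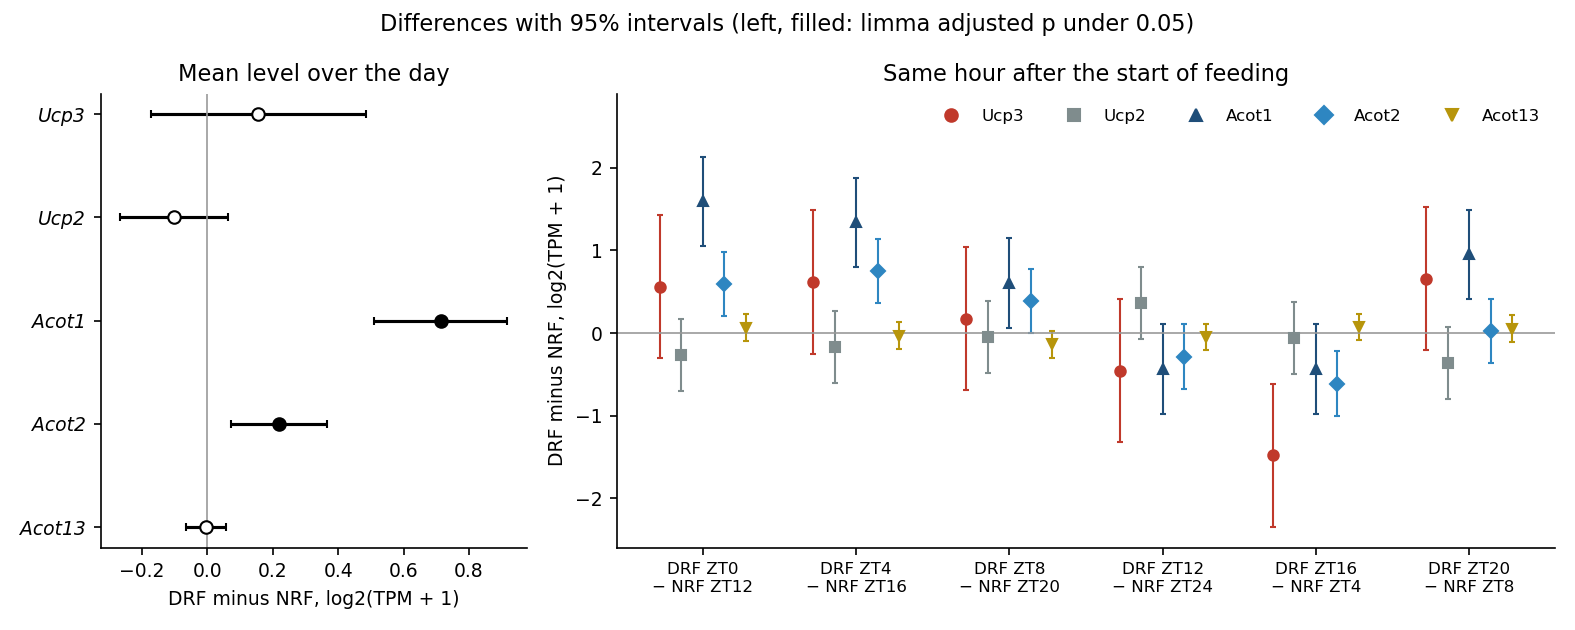
Left, difference in mean level over the day, DRF minus NRF, on the log2(TPM + 1) scale for each gene. Right, the 6 differences at the same hour from the start of feeding. Points are limma estimates with 95% intervals, filled in the left panel where the adjusted p was under 0.05; the right panel carries no test. Acot1 is at 0.71 over the day and at 1.59 and 1.34 at 0 and 4 h of feeding, and Ucp3 is at -1.48 for DRF ZT16 minus NRF ZT4.

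Hearts taken at ZT24 repeat ZT0 a day later. No member passed that comparison: 0 of 5 under DRF and 0 of 5 under NRF by limma, beside 0.425% and 0.0576% of all genes tested. At an unadjusted p under 0.05 there were 0 members under DRF and 1 under NRF, beside 1695 and 1268 of all 13891 genes tested. That member was Ucp2, at -0.45 (95% interval -0.88 to -0.01, adjusted p = 0.536). The difference for Ucp3 was 0.11 under DRF (-0.76 to 0.98) and -0.03 under NRF (-0.90 to 0.84), intervals that hold changes in either direction.

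The wider pathway was read from 6 lists of 75 genes, 64 of them tested. Over these, 33 passed the limma test for a rhythm under DRF and 24 under NRF (32.3% and 37.2% of all genes), 17 under both (17.6%), and 29 passed for a different rhythm (27.5%). For the mean level 12 were higher under DRF (2.87% of all genes) and 11 lower (26.1%), with a median of 0.04 beside -0.05 for all genes, and 23 of 64 passed the food-matched F test (43.4%). After median-of-ratios rescaling 29 list genes differed in mean level and 34 passed the food-matched test. Without the doubted pair the counts were 31 under DRF, 26 under NRF and 34 for a different rhythm. The order of the regimens depended on the scaling, with 27 under DRF and 29 under NRF after median-of-ratios rescaling and 25 and 27 on the deposited values.

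Genes of fatty acid oxidation and storage that the PPARs and fatty acids are known to induce formed the longest list. Of 22 tested, 18 passed for a rhythm under DRF and 10 under NRF, 10 under both, and 15 had a different rhythm. In mean level 8 were higher under DRF and 2 (Cpt2 and Fabp3) lower. Pdk4, the kinase that holds back glucose oxidation, peaked at ZT5.15 under NRF and ZT21.5 under DRF and its mean level was higher by 0.92 (SE 0.17, adjusted p = 0.000169). Cpt1a, which commits fatty acids to mitochondria, moved from ZT7.74 to ZT22.3 (-9.43 h, SE 0.790 h), and Mlycd, which breaks down the Cpt1 inhibitor malonyl-CoA, from ZT5.61 to ZT23.5 (-6.13 h, SE 0.839 h). Each of the 3 passed for a different rhythm (adjusted p = 2.83e-10, 1.51e-09 and 1.39e-08). They were named, as were the first genes of each list below, for having the smallest adjusted p in that test. Their passing thus follows from the choice and adds nothing to the counts.

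In the split NRF ZT4 group Pdk4 was at 231, 106, 1279 and 978 TPM and Cpt1a at 30.8, 33.3, 48.4 and 58.1 TPM. The same hearts, replicates 3 and 4, were thus high for Ucp3, Acot1, Acot2, Pdk4 and Cpt1a. Ucp2 was also higher in them (27.7, 33.3, 49.6 and 45.9 TPM in replicates 1 to 4), and Acot13 was lower (715, 658, 591 and 554 TPM). The blood marker sums of these 4 libraries were 2529, 1682, 33332 and 12407 TPM, higher in the same 2, and the part of blood was not tested. In the doubted pair Pdk4 was at 572 TPM in the library labelled DRF ZT4 replicate 1 against 172 to 256 TPM in the other 3, and Cpt1a at 54.9 against 23.8 to 31.2 TPM. In the library labelled NRF ZT8 replicate 1 Pdk4 was at 286 TPM, within the 149 to 451 TPM of the other 3, and Cpt1a at 31.3 TPM, below their 44.2 to 62.1 TPM.

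Of 11 acyl-CoA synthetases and fatty acid transport proteins tested, which make the acyl-CoA that thioesterases split, 7 passed for a rhythm under DRF and 7 under NRF, 7 had a different rhythm, and 2 were higher and 2 lower in mean level. Slc27a1 moved from ZT10.3 to ZT1.82 (-8.50 h, SE 0.572 h, adjusted p = 3.04e-14), and its mean level was higher under DRF by 0.24 (SE 0.05, adjusted p = 0.000924). Acsl1, the main long-chain synthetase of heart, moved from ZT8.06 to ZT1.73 (-6.33 h, SE 0.974 h, adjusted p = 2.01e-05), and Acss1, a mitochondrial acetate-activating enzyme, from ZT10.3 to ZT23.2 (-11.2 h, SE 1.40 h, adjusted p = 3.38e-05).

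Of 16 other thioesterases listed, 9 were tested, 4 were under 1 TPM and 3 were not analysed here. Among the 9, 3 passed for a rhythm under DRF and 2 under NRF, 2 had a different rhythm, 0 differed in mean level by limma (1, Acot7, at an unadjusted p under 0.05), and 0 were rhythmic under both regimens by limma, so their differences in peak time are not summarised. Of all 13891 genes tested, 5660 had an unadjusted p under 0.05 for the mean level. Them4 passed for a different rhythm (adjusted p = 0.00343), with an amplitude of 0.17 under NRF and 0.02 under DRF, as did Acot11 (adjusted p = 0.0165), at 0.37 and 0.18. Them6 came next (adjusted p = 0.0693) and did not pass.

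Of 6 other carriers counted with the uncoupling proteins, 1 passed for a rhythm under DRF and 3 under NRF, and 3 had a different rhythm: Slc25a14 (adjusted p = 0.000672), Slc25a5 (0.00164) and Slc25a27 (0.00967), with NRF amplitudes of only 0.17, 0.14 and 0.19. In mean level 1 was lower, Slc25a30, and 0 were higher by limma (1 at an unadjusted p under 0.05). Ucp1, the carrier of brown fat, ran from 0 to 78.9 TPM with a mean of 4.19 and is also an adipocyte marker.

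Among 9 regulators 4 passed for a rhythm under DRF and 2 under NRF, and 2 had a different rhythm, Foxo1 (-9.43 h, SE 1.75 h, adjusted p = 0.00357) and Esrra (7.03 h, SE 1.76 h, adjusted p = 0.0289). Neither passed the limma test for a rhythm under both regimens, so these differences in peak time are uncertain. Foxo1 did not pass under NRF (adjusted p = 0.0668) and Esrra did not under DRF (adjusted p = 0.113). Klf15 came next (adjusted p = 0.112) and did not pass. In mean level Ppargc1a (0.26) and Klf15 (0.24) were higher, and Ppard, Ppargc1b, Rxra and Esrra lower by 0.08 to 0.17. The 7 mitochondrial antioxidant genes tested gave 0 rhythmic under either regimen and 0 with a different rhythm by limma, and 0 also at an unadjusted p under 0.05. Of all 13891 genes tested, 6117 had such a p for a rhythm under DRF, 6522 under NRF and 5411 for a different rhythm. Their smallest adjusted p for a different rhythm were 0.325 (Txn2), 0.368 (Prdx5) and 0.390 (Sod2), and Txn2 and Gpx4 were lower in mean level.

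The genes whose 14 group means were most like those of Ucp3 were Top3a (Pearson r 0.94), Ttc30a1 (0.92), Ehhadh (0.92), Relch (0.92) and Cpt1a (0.92). For Acot1 they were Mlycd (0.94), Twf2 (0.93) and Vwa3a (0.91), and for Acot2 Chrna2 (0.95), Gm17251 (0.95) and Mlycd (0.94). For Ucp2 they were Clip3 (0.95), Sorbs3 (0.94) and Fcgrt (0.94), and for Acot13 Cct4 (0.88), Mrps24 (0.84) and Glrx3 (0.82). These values order the genes tested by likeness and carry no test.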

How the data were processed

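Heart values were deposited by the authors as a table labelled TPM for 22864 genes in 56 libraries. Per the submitters' processing notes HISAT2 (2.0.5), featureCounts (1.5.0-p3) and mm10 were used. The deposited values were not linear TPM: they followed log2(1 + scaled reads) divided by exon length. Whole reads were recovered with exon lengths of GENCODE M21 (GRCm38), 99.9996% of 1278980 values coming within 0.1 of a whole read, and TPM was recomputed. Lengths were searched for 831 genes and 2 genes were left out.

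The 13891 genes that averaged 1 TPM or more were tested on log2(TPM + 1), which understates changes of low genes, with limma 3.58.1 (R 4.3.3; eBayes with trend, Benjamini-Hochberg adjusted p under 0.05) across all genes. Rhythms were cosine and sine terms of 24 h, in place of MetaCycle. Mean level (all 7 ZTs weighted equally), food-matched and ZT24 contrasts came from a model of 14 group means. The food-matched contrasts and a 12 h term of the members are estimates with no test. Ratios were tested by permutation of regimen within ZT. Groups came from the labels alone. The replicates are numbered in the labels, and p-values measure the spread between these libraries. Members and lists were chosen with earlier results of these data known. Named list genes were the 3 with the smallest adjusted p for a different rhythm in each list, and other genes named to complete a count of 5 or fewer or to describe a library were chosen after their values were seen. Scripts were tested on simulated data. Alternatives were pseudocount 0.1, untransformed TPM, no filter, median-of-ratios rescaling, the deposited values, a replicate block, and leaving out the doubted pair, each ZT, each replicate number and each library.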

Additional observations from a re-analysis of the deposited data

Results flagged for a closer look

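In 2 of the 70 groups of 4 hearts (5 genes in 14 groups) a single heart stood apart from the other 3 past the 95% critical value of Dixon's test, where chance gives about 1 in 20. Ucp3 in the library labelled DRF ZT4 replicate 1 was at 99.7 TPM, above 8.62 to 18.3 TPM in the other 3 hearts. It lies within the 59.6 to 102.7 TPM of the NRF ZT8 replicates 2 to 4, the group nearest to this library over other genes. Ucp3 in DRF ZT24 replicate 3 was at 38.9 TPM, below 79.5 to 86.3 TPM in the other 3. In the same heart Pdk4 was at 350.5 TPM, the lowest of its group. No cause was tested.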

How the results depend on the processing

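After median-of-ratios rescaling the lists gave 27 genes rhythmic under DRF and 29 under NRF, the reverse of the order with TPM. Of 4907 values recomputed for 72 results under 75 settings, 4827 were counted as the same. For a tested result this meant the same side of the threshold, and a turned sign counted as a change only where a value passed. The turned sign of the Acot13 mean level after rescaling is thus among them. Without a test, the limit was the SE for a phase difference, the sign for an amplitude ratio and a fixed fold for a list count. Leaving out ZT4, ZT12 or ZT16 moved the phase difference of Ucp3 to -7.43, -7.52 or -10.6 h. The mean level difference of Ucp3 was 0.40 without ZT4, and that of Acot2 was 0.126, 0.0933 and 0.135 without ZT0, ZT20 and ZT24. The number of list genes with a different mean level was 14 without ZT0 and 12 without ZT20. Without ZT12 the lists gave 21 genes rhythmic under DRF, 15 under NRF and 18 with a different rhythm, and without ZT16 21 rhythmic under DRF. Leaving out replicate numbers or libraries gave -6.98 to -5.62 h for the phase difference of Acot1, 0.16 to 0.32 for the mean level of Acot2, and 19 to 34 list genes rhythmic under DRF, 15 to 28 under NRF and 13 to 25 with a different mean level. The causes were not tested beyond the loss of samples. Same-numbered libraries did not deviate together (median r of their deviations 0.0128 over 364 pairs, 4.35e-05 for 1092 other pairs). With the replicate number as a block all 72 results kept their call, with 24 list genes of a different mean level against 23. Every member had at least 311 reads in every library.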
